A study of Mus musculus with 6 samples.

Results

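The genes described here encode the proteins of the cytosolic ribosome. They were taken as the protein-coding genes whose GENCODE mouse symbol is that of a ribosomal protein, together with Rplp0, Rplp1, Rplp2 and Rpsa, and pseudogenes were left out. This gave 84 of the 39017 genes in the count table, 52 of the large and 32 of the small subunit, and 67 of them had enough reads to be tested.

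The data are RNA-seq counts from the corpus callosum, the myelinated tract between the cerebral hemispheres, in C57BL/6 mice carrying RiboTag and Olig1-Cre. RiboTag adds an HA tag to the ribosomal protein RPL22 wherever Cre has acted, here in cells that have expressed Olig1, a transcription factor of the whole oligodendrocyte lineage, and an anti-HA antibody was used in both groups to capture ribosomes with their RNA. The groups are mice fed 0.2% cuprizone in the diet (replicates 30, 31 and 32) and control mice (replicates 24, 26 and 27). The labels' protocol describes females aged 8 to 10 weeks, 6 or 9 weeks of feeding and 3 weeks of recovery, and does not say which stage the cuprizone libraries hold. Cuprizone chelates copper and is toxic to mature oligodendrocytes. Nothing in the labels says that the samples of a group came from separate animals, so p-values measure the spread between these samples.

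A ribosome joins a small subunit, which reads the mRNA, with a large subunit, which forms the peptide bond. Each ribosome carries a single copy of most ribosomal proteins, so cells make them in matched amounts. Their mRNAs begin with a run of pyrimidines, the TOP motif, through which mTOR and LARP1 control how many of these mRNAs are on ribosomes. Mammalian genomes also hold many processed pseudogenes of these genes, intronless copies made from their mRNA.

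The TOP motif was looked for in RefSeq start sites of build GRCm38.p6, which were given for 64 of the 84 genes. It was searched on the gene's strand as a C at the annotated start followed by at least 4 bases that are each C or T. At least 1 start of 13 of the 64 genes (20.3%) held it, against 3.01% of all 27025 genes with an entry. The windows shown run from 15 bases before the start to the 15 bases that begin with it. They show such a run at 5 ribosomal protein genes, and 2 starts of paralogs that do not meet the rule. Capitals mark a run that meets it, over its full length. The rule requires the C at the annotated base itself. In Rpl22l1 a run of C and T begins 1 base after the start, so it is not counted.
Rps6, chr4:86857353-86857382, minus strand: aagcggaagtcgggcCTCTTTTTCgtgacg
Rplp2, chr7:141447636-141447665, plus strand: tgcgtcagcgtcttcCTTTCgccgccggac
Rpl15, chr14:18270972-18271001, minus strand: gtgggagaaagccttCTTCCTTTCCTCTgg
Rps10, chr17:27635230-27635259, minus strand: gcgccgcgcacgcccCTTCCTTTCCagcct
Rpl28, chr7:4792950-4792979, plus strand: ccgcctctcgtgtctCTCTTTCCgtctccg
Rpl22l1, chr3:28805493-28805522, plus strand: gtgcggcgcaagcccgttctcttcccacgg
Rpl7l1, chr17:46782642-46782671, minus strand: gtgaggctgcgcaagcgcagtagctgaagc
The 10 tested genes with the run had a median log2 fold change of 0.12 between cuprizone and control. The 40 tested genes with an entry but no run by this rule also had one of 0.12. Genes that miss the rule can still carry the motif beside the annotated start. The medians therefore cannot compare genes with and without the motif.

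Library totals ran from 19455245 to 22381307 counts in cuprizone and from 18549360 to 18771737 counts in control. Of 16569 genes tested, 7.57% passed an adjusted p of 0.05 (edgeR's quasi-likelihood test, Benjamini-Hochberg). Oligodendrocyte markers fell, 9 of 9 of them, and their summed level was 7982 to 14897 CPM in cuprizone libraries and 60803 to 82514 CPM in control libraries (CPM, the count scaled to the TMM-adjusted library size). Astrocyte markers were present at 15226 to 29290 CPM in cuprizone and 21461 to 24292 CPM in control. Microglial markers summed to 739 to 1343 CPM in cuprizone and 584 to 947 CPM in control, endothelial markers to 18.4 to 52.8 CPM and 10.1 to 17.4 CPM in the same order, and none of these lists had a member at 0. The counts of cuprizone replicate 32 were unlike those of the rest of its group: chi-square over degrees of freedom was 85.1 and 101 in its pairs and 26.6 for replicates 30 and 31.

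No ribosomal protein gene passed the test between the diets. Of the 67 tested, 0 were called by edgeR, by DESeq2 or by limma-voom, against 7.57% of all genes with edgeR. At an unadjusted p of 0.05 edgeR also gave 0, against 23.3% of all genes. The log2 fold changes ran from -0.44 to 0.55 with a median of 0.12, beside a median of 0.02 over all genes tested. They were positive for 51 of the 67 genes (76.1%), beside 52.6% of all genes, and 64 of the 67 lay within 0.5 of 0. The large subunit had a median of 0.13 over 43 genes and the small subunit one of 0.11 over 24. The median and its sign rested on single libraries. It was -0.03, with 27 of 68 genes positive, without cuprizone replicate 32, and 0.01 without control replicate 26, and it reached 0.28 without cuprizone replicate 30 and 0.25 without control replicate 24. The RNA was captured with tagged ribosomes from whole tissue. In such data fewer cells of a type, less RNA per cell and a smaller part of it on ribosomes cannot be told apart.

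The data bound the size of a change rather than show that there was none. The 95% interval of the log2 fold change lay inside -1 to 1, that is, within 2-fold, for 59 of the 67 genes. The other 8 were Rpl9, Rps25, Rpl12, Rps27a, Rps6, Rpl10a, Rpl23a and Rpl37a, which averaged from 0.861 to 3.11 CPM over the 6 libraries. The median interval reached 0.53 to either side of its estimate. The groups did not overlap for 2 of the 67 (2.99%), Rpl10a and Rpl7l1, against 30.2% of all genes.

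**Figure D1:**
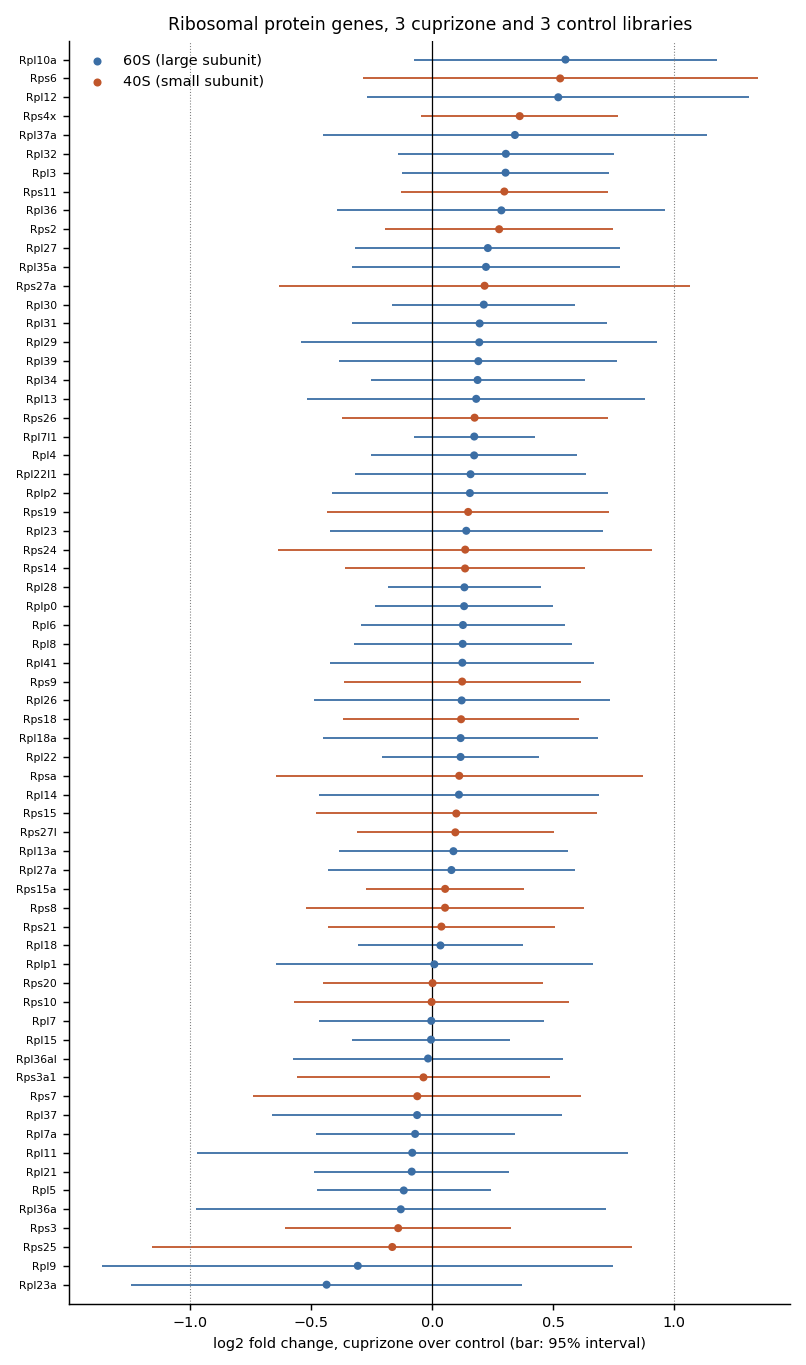
Log2 fold change of cuprizone over control for 66 of the 67 tested ribosomal protein genes, with 95% intervals as bars, large subunit in blue and small subunit in orange; dotted lines mark a 2-fold change. Every interval covers 0, and the estimates run from -0.44 (Rpl23a) to 0.55 (Rpl10a).

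Rpl22 (ENSMUSG00000028936, chromosome 4, 152325742 to 152334071 in GRCm38), the gene that carries the tag, encodes a large-subunit protein that binds RNA. It had 74.0, 87.3 and 67.7 CPM in cuprizone replicates 30, 31 and 32, against 75.2, 62.2 and 73.8 CPM in control replicates 24, 26 and 27. The groups overlapped, and the log2 fold change was 0.12 ± 0.14 (SE), with a 95% interval of -0.21 to 0.44 and an adjusted p of 0.66. Its paralog Rpl22l1, which can take the place of RPL22 in the ribosome and is repressed by it in mice, had 5.68, 7.65 and 7.78 CPM in cuprizone and 5.19, 7.20 and 6.52 CPM in control. The groups overlapped here as well (log2 fold change 0.16 ± 0.20, interval -0.32 to 0.64). Rpl22l1 stood at 7.67%, 8.77% and 11.5% of the Rpl22 level in the cuprizone libraries and at 6.90%, 11.6% and 8.84% in the control libraries, and the difference was smaller than the spread (exact permutation test, 2-sided, p = 1). With 3 libraries against 3 that test cannot give a p below 0.1. Olig1, whose locus drives Cre, fell by 1.12 on the log2 scale in cuprizone (adjusted p = 0.0334, edgeR).

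The P-stalk of the large subunit, formed by Rplp0, Rplp1 and Rplp2, recruits elongation factors. Rplp0 had 56.9, 76.8 and 79.8 CPM in cuprizone and 72.0, 60.3 and 62.6 CPM in control (log2 fold change 0.13 ± 0.16). Rplp1 had 89.5, 136 and 173 CPM in cuprizone and 169, 101 and 127 CPM in control. Its groups covered nearly the same range, and its log2 fold change was 0.01 with an interval of -0.65 to 0.66. Rplp2 was at 55.9 ± 11.8 CPM in cuprizone and 50.1 ± 14.2 CPM in control (SD, n = 3 per group). Rpl5 and Rpl11, which carry the 5S rRNA and bind the p53 inhibitor MDM2 when ribosome assembly fails, had log2 fold changes of -0.12 ± 0.15 and -0.08 ± 0.38. Rpl11 averaged 1.09 CPM in cuprizone and 1.16 CPM in control, too few reads to show a change of less than about its interval of -0.97 to 0.81.

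Rpl4, Rpl8 and Rps3 had the most reads. Rpl4, which lines the tunnel through which the new peptide leaves, had 286, 375 and 407 CPM in cuprizone and 354, 281 and 311 CPM in control. Cuprizone replicate 30 and control replicate 26 were the low libraries, and the groups overlapped (0.17 ± 0.18). Rpl8, a protein near the peptidyl transferase centre, had 252, 345 and 364 CPM in cuprizone and 336, 252 and 292 CPM in control (0.13 ± 0.19). Rps3, at the mRNA entry of the small subunit, had 184, 248 and 258 CPM in cuprizone and 302, 205 and 254 CPM in control (-0.14 ± 0.20). The same libraries were low in these genes as in Rpl4.

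Among small-subunit genes Rps4x, carried on the X chromosome, had the smallest p. It had 22.05, 28.1 and 29.2 CPM in cuprizone and 24.5, 17.3 and 19.9 CPM in control, so that 1 control library lay among the cuprizone libraries. The log2 fold change was 0.36 ± 0.17, with an interval of -0.04 to 0.77 (edgeR adjusted p = 0.26). Rps6, the target of the S6 kinases, had 1.80, 1.41 and 3.16 CPM in cuprizone and 1.41, 1.59 and 1.40 CPM in control. Its estimate of 0.53 rested on cuprizone replicate 32, and without that library it was 0.13. Rpsa, also a laminin receptor, and Rps27a, made as a fusion with ubiquitin, averaged 1.28 and 1.35 CPM in cuprizone and 1.18 and 1.16 CPM in control, and neither passed.

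Rpl10a had the largest positive estimate of all 67, followed by Rps6. It had 2.98, 2.99 and 3.07 CPM in cuprizone and 2.77, 1.53 and 1.86 CPM in control, so that the groups did not overlap (0.55 ± 0.27, adjusted p = 0.27). With reads of its named pseudogenes added the estimate was 0.36. Among the 5 largest positive estimates were also Rpl12 (0.52 ± 0.34), Rps4x and Rpl37a (0.34 ± 0.34), and that of Rpl37a was -0.09 without cuprizone replicate 32. The largest negative estimates were those of Rpl23a (-0.44 ± 0.34), Rpl9 (-0.31 ± 0.45), Rps25 (-0.16 ± 0.42), Rps3 and Rpl36a (-0.13 ± 0.36). With reads of named pseudogenes added, the estimates of Rpl9 and Rps25 turned positive, at 0.08 and 0.16. Those of Rpl23a, Rps3 and Rpl36a stayed negative, at -0.41, -0.14 and -0.05. Rpl23a had 2.93, 3.42 and 1.37 CPM in cuprizone and 3.12, 3.91 and 3.44 CPM in control, and cuprizone replicate 32 was the low library.

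Paralogs with expression patterns of their own did not pass either. Rps27l, a relative of Rps27 and a target of p53, had 12.1, 12.5 and 11.6 CPM in cuprizone and 14.1, 9.80 and 9.96 CPM in control (0.10 ± 0.17, interval -0.31 to 0.50). Cdkn1a, the standard p53 target, rose by 3.11 on the log2 scale in the same libraries. Rpl7l1, a relative of Rpl7 that works in ribosome assembly, had 49.5, 54.4 and 54.6 CPM in cuprizone and 48.5, 43.2 and 48.8 CPM in control. The groups did not overlap, but the difference was small and did not pass (0.17 ± 0.11, interval -0.08 to 0.42). Rpl7 itself had a log2 fold change of -0.00 ± 0.20. Rpl3, near the peptidyl transferase centre, had 18.1, 20.5 and 28.1 CPM in cuprizone and 19.3, 16.3 and 18.4 CPM in control (0.30 ± 0.18), and Rpl39, a small protein of the exit tunnel, 5.86, 8.00 and 9.95 CPM in cuprizone and 8.13, 5.50 and 7.22 CPM in control. Rpl36al, a retrocopy of Rpl36a that is expressed widely, averaged 6.31 CPM in cuprizone and 6.38 CPM in control, and Rpl36a 1.02 and 1.12 CPM in the same order. Paralogs known from muscle and testis were nearly silent. Rpl3l, the form of Rpl3 of skeletal muscle and heart, had 6, 6 and 6 reads in cuprizone and 3, 4 and 1 in control, Rpl39l, best known from testis, 0, 2 and 1 in cuprizone and 3, 1 and 0 in control. Rpl10l, the testis copy of Rpl10, had no read in any library, which at 3 counts allows up to 0.134 to 0.154 CPM in a cuprizone library and 0.160 to 0.162 CPM in a control library, by counting error alone.

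Ribosomal protein genes moved up and down together between libraries of a group. Their reads made up 0.231%, 0.290% and 0.335% of counts in cuprizone replicates 30, 31 and 32, and 0.262%, 0.195% and 0.226% in control replicates 24, 26 and 27. The 95% Wilson interval of the lowest ran from 0.193% to 0.197% and that of the highest from 0.332% to 0.338%, covering counting error only. The groups overlapped, at 0.285% ± 0.0521 in cuprizone and 0.228% ± 0.0339 in control (SD, n = 3, exact permutation test, 2-sided, p = 0.2). After TMM scaling, a correction for the makeup of each library, the shares were 0.264% ± 0.0507 and 0.247% ± 0.0399 in the same order (exact permutation p = 0.7).

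In cuprizone replicate 30 only 3 of the 67 genes lay above the mean of their group on the log2 CPM scale, with a median deviation of -0.31, whereas in cuprizone replicate 32 the number was 64 and the median deviation 0.27. In control replicate 26 it was 6 of 67 (-0.20) and in control replicate 24 it was 56 of 67 (0.21). Over all genes tested 48.9% to 53.5% lay above the group mean in each library. Cuprizone replicate 30 was the lowest of its group for 59 of the 67, against 31.01% of all genes, and control replicate 26 for 52, against 36.0%.

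Other genes of translation also differed between these libraries. Of 20 elongation and TOP factors 4 lay above the group mean in cuprizone replicate 30 and 17 in cuprizone replicate 32, and 2 in control replicate 26 and 19 in control replicate 24. Of 75 mitochondrial ribosomal protein genes, which are encoded in the nucleus, the numbers were 8, 58, 14 and 45 in that order of libraries. Among the controls their highest number was in replicate 27, with 57, and not in replicate 24 as for the cytosolic genes. The 1223 tested genes outside the group with at most 1000 bases of exon had median deviations of -0.08, 0.06, -0.07 and 0.07 in the same order. That limit counts all annotated exons of a gene. The tested ribosomal protein genes had a median of 1989 bases by this measure. Their short length is that of the principal transcript, with a median of 843 bases over the 84 genes, so the measures differ. Markers of other cells also varied between the cuprizone libraries. Neuron markers summed to 2133, 1582 and 3169 CPM in cuprizone replicates 30, 31 and 32 and to 1366, 2087 and 2204 CPM in control replicates 24, 26 and 27. Mural cell markers summed to 66.05, 42.5 and 100.6 CPM in cuprizone and 43.4, 39.0 and 43.0 CPM in control, and progenitor markers to 997, 958 and 568 CPM in cuprizone and 839, 1069 and 794 CPM in control. Cuprizone replicate 32 thus had the highest neuron and mural sums and the lowest progenitor sum of its group. The part that transcript length or cell makeup had in the pattern was not tested.

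**Figure D2:**
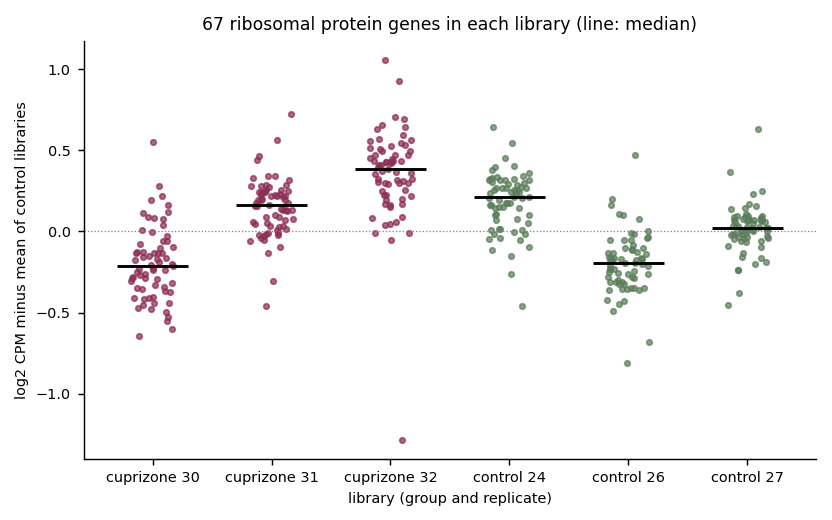
Log2 CPM of the 67 tested ribosomal protein genes in each library, minus the mean of the 3 control libraries for that gene; each point is a gene and the black line is the median. Cuprizone replicate 30 and control replicate 26 sit low and cuprizone replicate 32 and control replicate 24 high, so the groups overlap.

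Levels differed far more between genes than between diets, although the proteins are made in matched amounts. Per kilobase of principal transcript (the transcript GENCODE marks as the main coding form), the 67 tested genes ran from 0.635 CPM for Rpsa, 0.760 CPM for Rps25 and 0.930 CPM for Rpl12 to 218 CPM for Rpl4, 266 CPM for Rplp1 and 361 CPM for Rpl8, as means of 6 libraries. Rpl22 had 35.8 CPM per kilobase and ranked 20 of 84. By read number 7 genes averaged at least 100 CPM and 19 less than 1 CPM. The 17 untested genes had from 0 to 51 reads in all 6 libraries together. Among them were Rpl10, Rpl19, Rpl24, Rpl38, Rps12, Rps13, Rps16, Rps23, Rps27, Rps28 and Rps29, which encode core proteins of the ribosome.

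The levels went in part with how much of each transcript other genes share. In 81 of the 84 genes at least 1 window of 50 bases of the principal transcript also occurred in another annotated gene, in each case including a pseudogene, and the median gene had 48.9% of its windows to itself. The 21 genes with under 25% unique windows had a median of 2.05 CPM per kilobase and a maximum of 19.3, and 12 of them could be tested. The 22 genes with 25% to 50% had a median of 10.7 and a maximum of 266, that of Rplp1, which is second in level with 40% unique windows. The 27 genes with 50% to 75% had a median of 16.3, and the 14 genes over 75% one of 15.6 and a maximum of 361. Those 14 include the nearly silent paralogs Rpl3l, Rpl39l and Rpl10l, with 92.4% to 100% unique windows and at most 0.154 CPM per kilobase. Across the 84 genes, which share libraries and sequence, Spearman's rho between the unique share and the level per kilobase was 0.33. The sources used here do not state how reads that match several genes were counted.

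The lowest unique share was that of Rps27, a zinc finger protein of the small subunit, and a stretch of it is printed to show the overlap. Coding bases 161 to 210 occur letter for letter in 5 other annotated genes, 4 of them pseudogenes. Rps27 had 1.35% unique windows and 0, 0 and 1 reads in cuprizone and 2, 1 and 1 in control.
Rps27: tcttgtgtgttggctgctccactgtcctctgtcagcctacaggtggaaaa

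**Figure D3:**
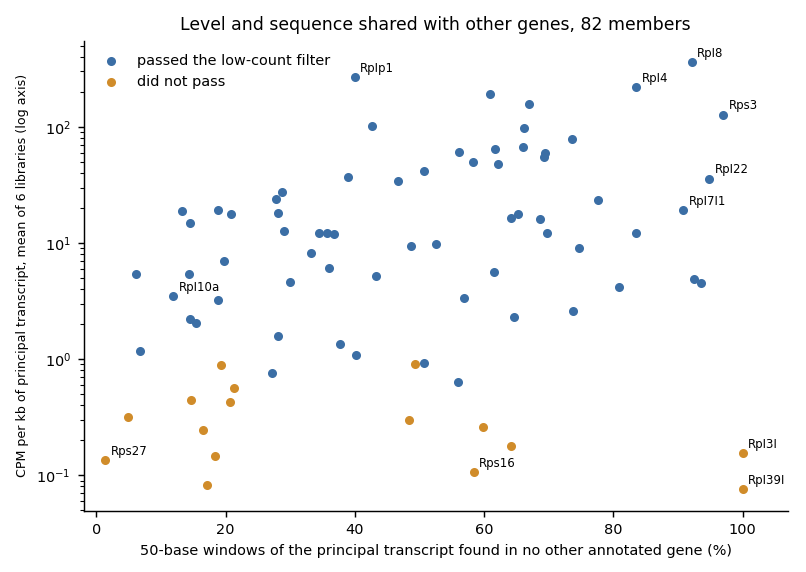
Level per kilobase of principal transcript (mean of 6 libraries, log axis) against the percentage of 50-base windows found in no other annotated gene, for 82 of the 83 ribosomal protein genes with at least 1 read; blue genes passed the low-count filter and orange ones did not. Genes under 25% stay at or below 19.3 CPM per kilobase, while Rpl8 reaches 361, and Rpl3l and Rpl39l are low with all windows unique.

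Reads were found on the copies. The table held 231 pseudogenes named after these genes, 121 of them with at least 1 read, and they took 0.0270%, 0.0332% and 0.0407% of counts in cuprizone replicates 30, 31 and 32 and 0.0307%, 0.0221% and 0.0262% in control replicates 24, 26 and 27. The libraries rank as they do for the genes themselves. For 14 of the 56 genes with a named copy, the copies held more reads than the gene. Rpl10a had 307 reads in the 6 libraries and its copies 3309, Rps10 had 550 and 3436, Rpl19 had 38 and 1672, and Rps13 had 6 and 1284. Rpl10a-ps1 (chromosome 1, 64993951 to 64994604) had 26.01, 28.9 and 37.7 CPM in cuprizone and 29.7, 20.9 and 22.3 CPM in control. Of the 22 named copies with enough reads to test, 0 passed with edgeR, against 7.57% of all genes. An unadjusted p under 0.05 was found for 0 of them, against 23.3% of all genes. With reads of the copies added to their genes, 71 genes could be tested, 0 passed and the median log2 fold change was 0.13. Over all genes that fit called 1255 of 16551.

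Gene and copy differ by few bases. Coding sequences were aligned to the copies without gaps. Rpl10a and Rpl10a-ps1 differ at 2 of 648 bases, Rpl3 and Rpl3-ps1 at 2 of 1209, and Rps10 and Rps10-ps1 at 6 of 495. Those of Rpl10a lie in its first codon, and Rpl10a-ps1 is annotated at 654 bases. An alignment without gaps cannot tell substitutions there from bases missing in the transcript used. The stretches of 60 coding bases with the most differences are shown for 2 of the pairs, bases 1 to 60 of Rpl10a and 226 to 285 of Rps10, with the differing bases in capitals.
Rpl10a: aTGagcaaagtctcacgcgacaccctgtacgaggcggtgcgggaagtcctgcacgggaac
Rpl10a-ps1: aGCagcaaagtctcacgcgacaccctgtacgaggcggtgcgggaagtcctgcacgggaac
Rps10: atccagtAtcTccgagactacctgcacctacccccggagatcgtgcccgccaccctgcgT
Rps10-ps1: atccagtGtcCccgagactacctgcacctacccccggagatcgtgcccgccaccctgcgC

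**Figure D4:**
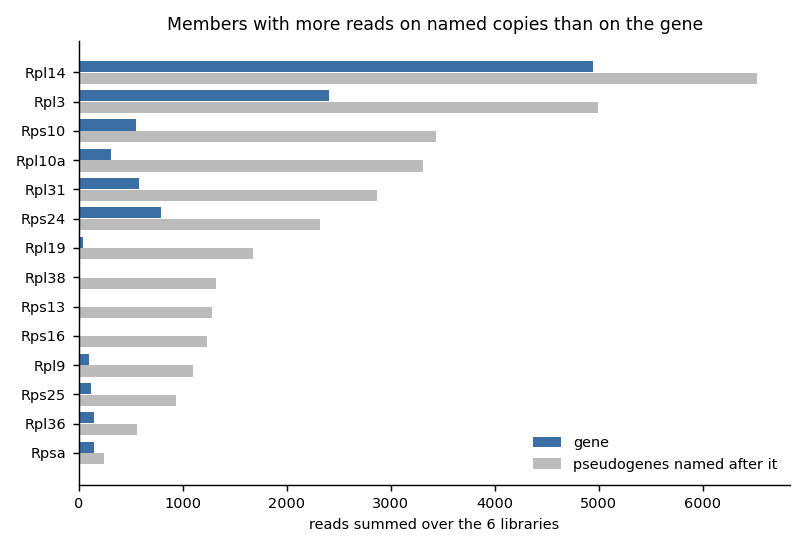
Reads summed over the 6 libraries for the 14 ribosomal protein genes whose named pseudogenes held more reads than the gene (gene in blue, copies in grey). Rpl14 and its copy lead, with 4948 and 6517 reads, and Rps13, Rps16 and Rpl38 have almost no reads of their own.

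Other parts of the translation machinery were compared by lists. Of 20 elongation and TOP factors 0 passed with edgeR or limma-voom and 1 with DESeq2, and the median was 0.14. At an unadjusted p of 0.05 edgeR also gave 1. That gene was Vim, an intermediate filament of astrocytes and other cells whose mRNA carries a TOP motif, at 882, 668 and 505 CPM in cuprizone and 370, 253 and 129 CPM in control (1.45 ± 0.39, adjusted p = 0.0765). Rack1, a scaffold protein of the small subunit outside the naming rule, had 130, 163 and 191 CPM in cuprizone and 152, 108 and 128 CPM in control (0.32 ± 0.19). Pabpc1, the poly(A)-binding protein, had an estimate of 0.35 ± 0.20. Fau, which encodes a ribosomal protein as a fusion with a ubiquitin-like protein, averaged 0.735 CPM in cuprizone and 0.544 CPM in control. Of 30 ribosome biogenesis genes 0 passed by any of the 3 tools, and the median was 0.06. Those with an unadjusted p under 0.05 in edgeR were 3 of the 30, a smaller share than the 23.3% of all genes. They were Rrs1 (0.32), Sbds (-0.35) and Nop2 (0.29).

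Of 37 initiation factors and regulators 3 rose and 0 fell with edgeR, against 1.87% and 5.7% of all genes, and the median was -0.07. DESeq2 called 3 higher and 2 lower, against 13.7% of all genes in either direction. In edgeR 7 of the 37 had an unadjusted p under 0.05, beside 23.3% of all genes. The share called higher was above the 1.87% of all genes, and it rested on 3 genes. The shares called in either direction, or with an unadjusted p under 0.05, were near or under those of all genes. Eif4ebp1, which holds back cap-dependent initiation and is a target of ATF4, had 20.6, 23.8 and 22.3 CPM in cuprizone, against 9.37, 5.38 and 5.65 CPM in control. No library of one group reached the other, and the log2 fold change was 1.71 ± 0.23 (adjusted p = 0.00615, 0.0346 at most with any library left out or any other setting). Eif1a, which helps the small subunit scan, rose by 0.76 ± 0.18 and Eif3c, a core subunit of the initiation factor that binds the small subunit, by 0.51 ± 0.12. Their adjusted p of 0.0474 and 0.0478 reached 0.181 and 0.216 without control replicate 27, and each also lost its call without control replicate 24 or 26 or cuprizone replicate 30. In addition Eif1a lost it without cuprizone replicate 32, with limma-voom and with GC content and length trends removed, and Eif3c without cuprizone replicate 31 and when low-count genes were kept. Of 75 tested mitochondrial ribosomal protein genes 1 rose and 0 fell with edgeR, DESeq2 and limma-voom, with a median of -0.03, and 6 had an unadjusted p under 0.05 in edgeR. That was Mrps6, at 56.4, 52.4 and 46.0 CPM in cuprizone and 36.3, 36.2 and 31.6 CPM in control (0.57 ± 0.12, adjusted p = 0.0349). Its adjusted p reached 0.164 without control replicate 27, it passed among the fits on 5 libraries only without cuprizone replicate 32, and it was 0.0561 with GC content and length trends removed. Mrpl14 and Mrpl22 had estimates of -0.43 and 0.39 with adjusted p of 0.14 and 0.16.

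**Figure D5:**
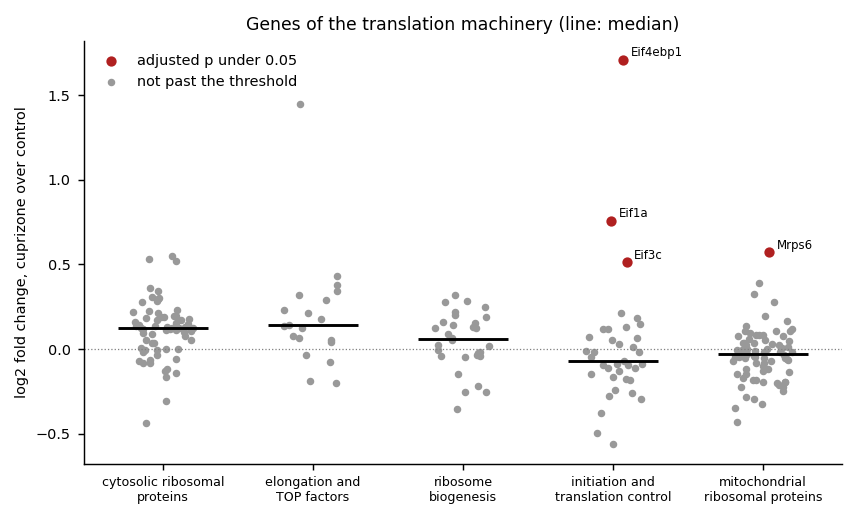
Log2 fold change of cuprizone over control for the tested genes of the cytosolic ribosome (67), elongation and TOP factors (20), ribosome biogenesis (30), initiation and translation control (37) and the mitochondrial ribosome (75); red points passed an adjusted p of 0.05 and black lines are medians. Eif4ebp1, Eif1a, Eif3c and Mrps6 are the 4 genes past the threshold, and none is a cytosolic ribosomal protein gene.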

How the data were processed

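The authors deposited raw read counts per Ensembl mouse gene for the 6 libraries. Per the submitters' processing notes bcl2fastq 2.17 and build mm10 were used, and the sources used here name no aligner, counting program or strand setting. Columns were matched to samples by title. Replicates of a group differed by more than sampling noise (chi-square per degree of freedom 24.4 to 101). Each library counted as 1 replicate, although this excess cannot show that the libraries came from separate animals. GENCODE M21 on GRCm38, the assembly also called mm10, gave symbols for 37693 of 39017 identifiers, and RefSeq gave start sites.

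In R 4.3.3, genes were kept by filterByExpr (minimum count 10, total 15), scaled by TMM and compared with edgeR 4.0.16 (glmQLFit, robust, glmQLFTest, 2-sided), with Benjamini-Hochberg adjustment over 16569 genes at 0.05. Standard errors came from the log2 fold change and its F statistic, and 95% intervals use the test's degrees of freedom. Windows of 50 bases were matched on both strands to all GENCODE transcripts. The procedure was tested on simulated counts. Alternatives used DESeq2 1.42.0, limma 3.58.1 and other scalings and filters. Members and lists were chosen with earlier results of these data known. Named genes are those with set roles, paralogs, the 5 largest estimates each way, the 3 highest and lowest levels per length and the 3 smallest p of each list. Rps10, Rps13, Rpl14, Rpl19, Rpl3-ps1 and other genes shown for shared reads were chosen after their values were seen, and Rps4l of the rule is annotated as a pseudogene. Results of 2 genes are not reported here.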

Additional observations from a re-analysis of the deposited data

How the results depend on the processing

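No ribosomal protein gene passed in any of the 14 alternative fits, which used upper-quartile scaling, RLE scaling, TMM factors computed without these genes and the myelin genes, no filter on low counts, DESeq2, limma-voom, GC content and length trends removed, pseudogene reads added, and each library left out in turn. Over all genes the main fit called 1255 of 16569. Fits with a library left out called from 547 of 16895, without control replicate 26, to 1427 of 16735, without cuprizone replicate 32. A count of 0 says less in the fits that called fewer genes. The median log2 fold change of the ribosomal protein genes ran from 0.10 to 0.18 with all libraries and from -0.03 to 0.28 with 1 left out. The difference in their share of counts was 0.0575 percentage points, 0.0177 after TMM scaling and 0.0326 to 0.0846 with a library left out. DESeq2 called 1 elongation or TOP factor higher and 2 initiation factors lower, and with GC content and length trends removed 0 mitochondrial ribosomal protein genes were higher; the cause was not tested. With a library left out, the initiation list had 1 to 2 genes higher, 0 to 1 lower and a median from -0.0836 to 0.00596, and the mitochondrial list 0 to 1 higher. No paired analysis was possible because the groups share no replicate number. Depth limits the genes near 1 CPM most. Sequence shared with a pseudogene was found in 81 of the 84 genes. Among those 81, the percentage of unique windows ran from 1.35% for Rps27 to 97.04% for Rps3. How far shared reads limit their levels was not tested.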

Other observations

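Rps4l, a retrocopy of Rps4x that GENCODE M21 annotates as a transcribed processed pseudogene, had 23.7, 20.1 and 27.7 CPM in cuprizone and 16.8, 14.2 and 15.4 CPM in control. The groups did not overlap, and the log2 fold change was 0.62 ± 0.15 with an adjusted p of 0.0538 (edgeR's quasi-likelihood test). Rpl9-ps6, a coding locus by the annotation despite its name, had 8.79, 12.6 and 16.9 CPM in cuprizone and 10.2, 7.65 and 10.8 CPM in control, more than the 0.769 CPM in cuprizone and 0.953 CPM in control of Rpl9 itself. Both were named after their values were seen.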
